A study of Mus musculus with 6 samples.

Results

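The collagen genes are the rows of the liver expression table whose symbol is Col, a number, the letter a and a number. By this rule 37 of 28450 genes were members. They were sorted by textbook role into 9 fibrillar collagens, 6 basement membrane collagens (all of type IV) and 22 other collagens. The study compared livers of 3 male Acsm3 knockout mice with livers of 3 male wild-type control mice. All 6 animals were 12 weeks old, ate a normal diet and carried no other labelled allele or treatment. The labels do not say which part of Acsm3 was disrupted, in which cells, or on which strain.

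Collagens are extracellular proteins whose chains wind around each other in a helix of repeated glycine-containing triplets. Fibrillar collagens assemble into cross-linked fibrils that bear tension, and type IV collagen forms the sheet-like network of basement membranes. In liver, fibrillar collagens are made mainly by stellate cells and portal fibroblasts. They are best known there as the material of fibrotic scar.

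RNA was poly(A)-selected and sequenced in 1 library per mouse, and the deposited values are FPKM, fragments per kilobase of gene, scaled to library size. The steps between low FPKM values implied 15300000 to 16200000 fragments in the knockout libraries and 15700000 to 16300000 fragments in the control libraries. Acsm3 (ENSMUSG00000030935) was at 0.668, 2.92 and 1.08 FPKM in knockouts 1, 2 and 3, against 33.2, 34.4 and 32.2 FPKM in controls 1, 2 and 3. This put Acsm3 at a log2 difference of -3.84 ± 0.29 (limma, adjusted p = 0.00338). The hepatocyte product Alb was at 22584 ± 1463 FPKM in knockout and 34484 ± 3820 FPKM in control livers (SD, n = 3 each), so the labelled tissue held its defining marker. Alb was itself called lower in knockouts by the test below, a call lost in 5 of the 6 fits that omit a mouse. Fold changes below compare log2(FPKM + 1) of knockout with control livers and carry limma's moderated SE. A gene passed at a Benjamini-Hochberg adjusted p under 0.05 over the 10996 genes that averaged 1 FPKM or more. The median of these genes was 0.13, and it was 0.00 after median-ratio rescaling of the libraries.

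The promoters of the major fibrillar and type IV chains are shown because these genes moved together, and because Col4a1 and Col4a2 share a start region. RefSeq's table (GRCm38.p6) gave windows of 250 bases before to 50 bases after a gene start for 30 of the 37 members. Col1a1 and Col14a1 had none. RefSeq's start of Col1a2 lies downstream of the deposited start at 4504814, so the Col1a2 window lies wholly within the deposited gene. Capitals mark, on either strand, the GC box GGGCGG, the CCAAT box CCAAT and the TATA box TATAAA. The windows lie at chr6:4505368-4505667 on the plus strand (Col1a2), chr1:45311288-45311587 on the plus strand (Col3a1), chr8:11312777-11313076 on the minus strand (Col4a1) and chr8:11312555-11312854 on the plus strand (Col4a2).
Col1a2: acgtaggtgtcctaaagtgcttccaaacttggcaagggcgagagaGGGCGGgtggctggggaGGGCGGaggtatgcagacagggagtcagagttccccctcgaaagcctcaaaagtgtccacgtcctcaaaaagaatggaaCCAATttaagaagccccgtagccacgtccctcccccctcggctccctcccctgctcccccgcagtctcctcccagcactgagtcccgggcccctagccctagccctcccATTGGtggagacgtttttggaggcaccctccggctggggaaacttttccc
Col3a1: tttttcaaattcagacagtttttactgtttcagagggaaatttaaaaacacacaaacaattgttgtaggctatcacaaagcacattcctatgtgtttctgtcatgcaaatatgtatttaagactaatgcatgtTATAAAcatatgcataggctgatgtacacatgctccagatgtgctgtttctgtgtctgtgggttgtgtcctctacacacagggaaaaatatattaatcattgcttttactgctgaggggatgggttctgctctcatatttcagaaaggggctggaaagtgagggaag
Col4a1: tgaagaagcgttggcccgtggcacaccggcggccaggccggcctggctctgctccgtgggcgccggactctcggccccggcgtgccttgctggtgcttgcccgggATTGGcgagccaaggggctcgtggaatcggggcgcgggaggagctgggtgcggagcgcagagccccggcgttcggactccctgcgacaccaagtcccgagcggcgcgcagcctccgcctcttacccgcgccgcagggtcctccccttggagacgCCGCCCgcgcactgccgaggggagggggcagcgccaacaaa
Col4a2: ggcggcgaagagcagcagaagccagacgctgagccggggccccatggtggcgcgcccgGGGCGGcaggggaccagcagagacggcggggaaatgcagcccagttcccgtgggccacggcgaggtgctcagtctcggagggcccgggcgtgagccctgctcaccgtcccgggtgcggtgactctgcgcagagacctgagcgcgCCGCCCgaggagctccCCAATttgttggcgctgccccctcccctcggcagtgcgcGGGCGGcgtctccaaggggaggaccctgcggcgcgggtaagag

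The Col1a2 window held 2 GC boxes and 2 CCAAT boxes, and the Col3a1 window held 1 TATA box. The Col4a1 window held 1 GC box and 1 CCAAT box. The Col4a2 window held 3 GC boxes and 1 CCAAT box. The Col4a1 GC box and the last of the 3 Col4a2 GC boxes are the same bases read from opposite strands. They are counted in both windows here and below. Col4a1 and Col4a2 start head to head. Their windows share 78 bases, and in the deposited positions the genes overlap by 22 bases. The other type IV genes have the same layout, with 71 bases between Col4a4 and Col4a3 and 1308 bases between Col4a6 and Col4a5. A GC box stood in 20 of 32 collagen windows (62.5%), against 35.7% of all 32851 windows in the table. A CCAAT box stood in 31.2% of the collagen windows and 37.4% of all windows, and a TATA box in 15.6% and 13.6%. The 9 windows of members that rose came from 8 of the 10 genes, with 2 windows from Col6a2. They held a GC box in 6, a CCAAT box in 3 and a TATA box in 1. A match of letters is a description of the window and not a binding site.

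All 37 members were above 0 in at least 1 liver, and 29 were above 0 in all 6 livers. An average of 0.1 FPKM or more was reached by 23 members, namely 8 of 9 fibrillar, 3 of 6 basement membrane and 12 of 22 other collagens. An average of 1 FPKM or more was reached by 13 members, namely 6 fibrillar, 2 basement membrane and 5 other collagens. At least 10 FPKM was reached by Col18a1 and Col14a1. In knockout livers 17 members had a group mean of at least 1 FPKM, against 8 members in control livers. The same count was not made over all genes, and the median tested gene was itself higher in knockouts by a log2 difference of 0.13.

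Col18a1, the multiplexin whose C-terminal fragment is endostatin, was the most abundant collagen RNA in both groups. Its 102 to 127 FPKM in knockouts and 118 to 123 FPKM in controls made up 47.8% to 58.4% of summed collagen FPKM in knockout livers and 78.9% to 83.1% in control livers. The remaining 36 members summed to 98.0, 128 and 72.8 FPKM in knockouts 1, 2 and 3, against 25.9, 31.7 and 24.5 FPKM in controls 1, 2 and 3. Fibrillar collagens summed to 25.1 to 52.4 FPKM in knockouts and 6.62 to 8.47 FPKM in controls. Type IV summed to 15.2 to 26.5 FPKM in knockouts and 5.998 to 8.19 FPKM in controls. Each class sum without Col18a1 lay higher in every knockout liver than in any control liver.

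**Figure D1:**
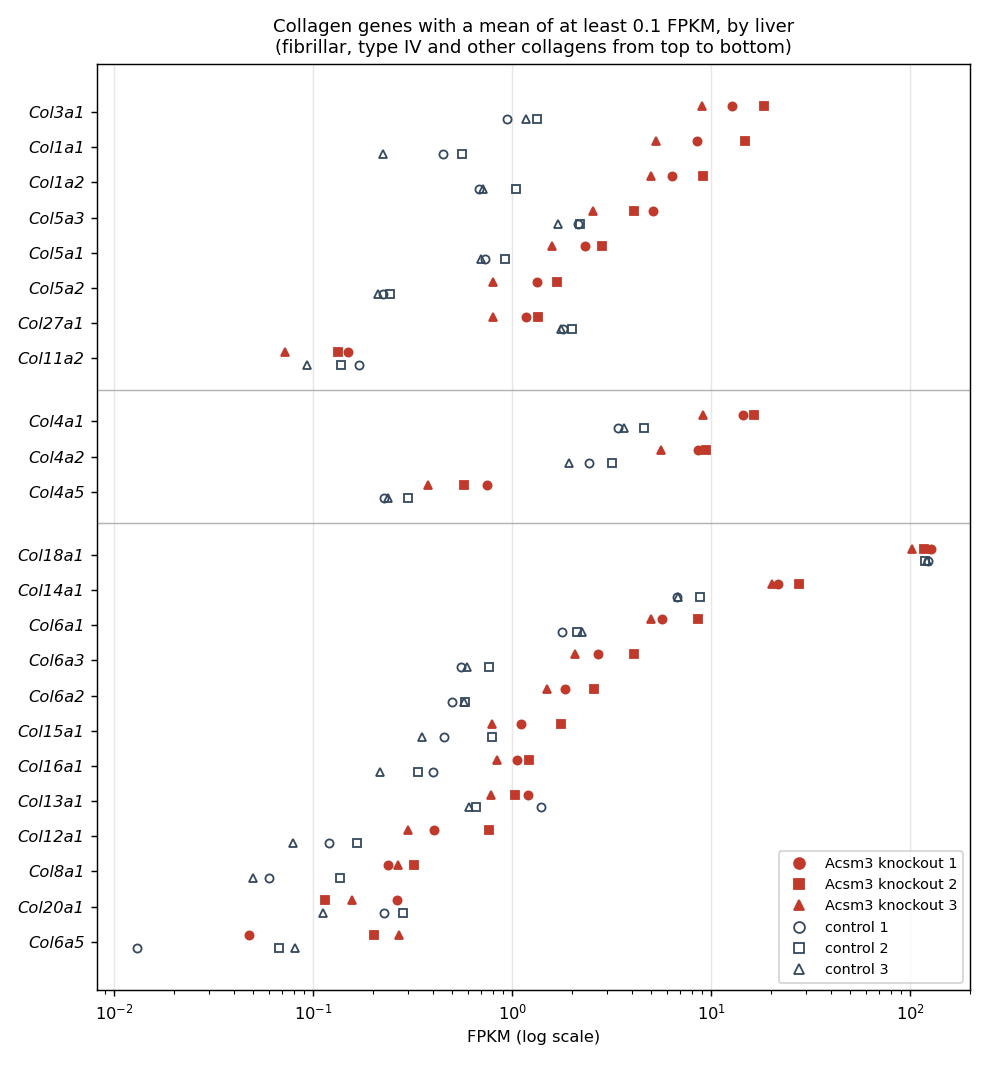
FPKM (log axis) of the 23 collagen genes averaging 0.1 FPKM or more, 1 symbol per liver, with filled symbols for the 3 Acsm3 knockout livers above open symbols for the 3 control livers. The knockout values of Col1a1, Col1a2, Col3a1, Col4a1, Col4a2, Col14a1 and the Col6 genes 1 to 3 lie wholly above the control values, those of Col27a1 wholly below, and those of Col18a1 overlap.

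**Figure D2:**
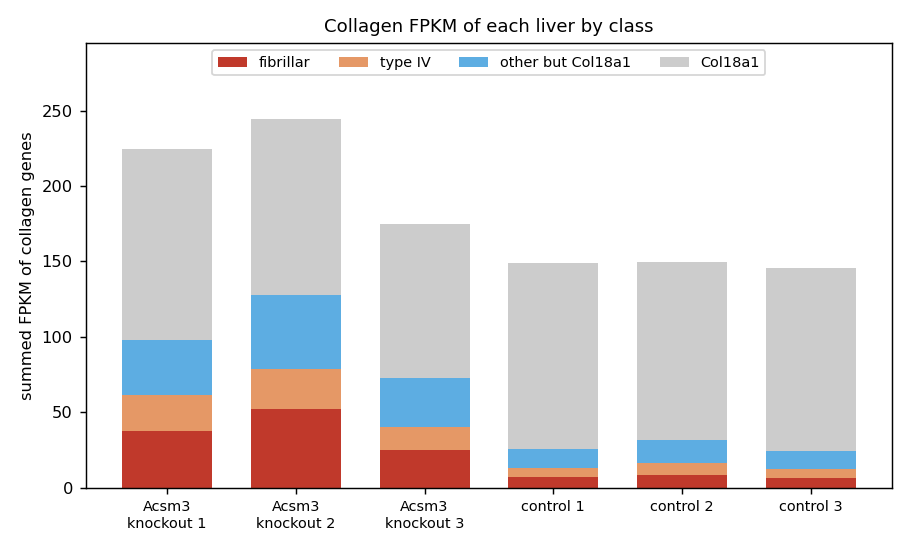
Summed FPKM of the collagen genes in each liver (bars from 0), split into fibrillar, type IV, other collagens without Col18a1, and Col18a1. The totals are 175 to 244 FPKM in the 3 Acsm3 knockout livers and 145 to 150 FPKM in the 3 control livers, and the Col18a1 part is similar throughout.

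Of the 13 tested members, 10 rose in knockout livers and 0 fell, beside 13.9% of all tested genes that rose and 2.61% that fell (16.5% together). The rises were those of 4 fibrillar, 2 type IV and 4 other collagens, with ratios of group means from 2.87 to 23.1. The 10 members that rose kept this call after median-ratio rescaling and after quantile normalization, where Col27a1 also passed as lower. Of these 10, Col1a1, Col1a2, Col5a1, Col6a2 and Col6a3 had a control mean under 1 FPKM and were tested only because knockout livers were high. Without the filter all 37 members entered the fit, and 10 rose and 0 fell, beside 2.08% and 0.406% of 26129 genes (2.49% in either direction). In that fit Col16a1 passed and Col5a1 did not (adjusted p = 0.06 by limma). The median log2 fold change over the 37 members was 0.14, against 0.05 over all genes in it. Voom (limma) on fragments recovered from the FPKM, an alternative chosen after the data were seen, tested 32 members with at least 10 fragments. There 16 rose and 1 fell, beside 12.4% and 1.78% of 18074 genes (14.2% together), and the median log2 fold change was 1.40 for members and 0.22 for all genes. Over the 37 members, all 3 knockout values lay above all 3 control values in 18 members and below them in 1, beside 22.4% and 4.33% of genes above 0 in a liver. Among the 13 tested members these counts were 11 and 1, beside 33.9% and 7.91% of tested genes. Without control 3 the count of rises was 6 of 14 tested members, where the calls of Col4a2, Col5a1, Col6a2 and Col6a3 were lost. In bulk tissue, more (or fewer) cells of a type and more (or less) RNA per cell cannot be told apart.

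**Figure D3:**
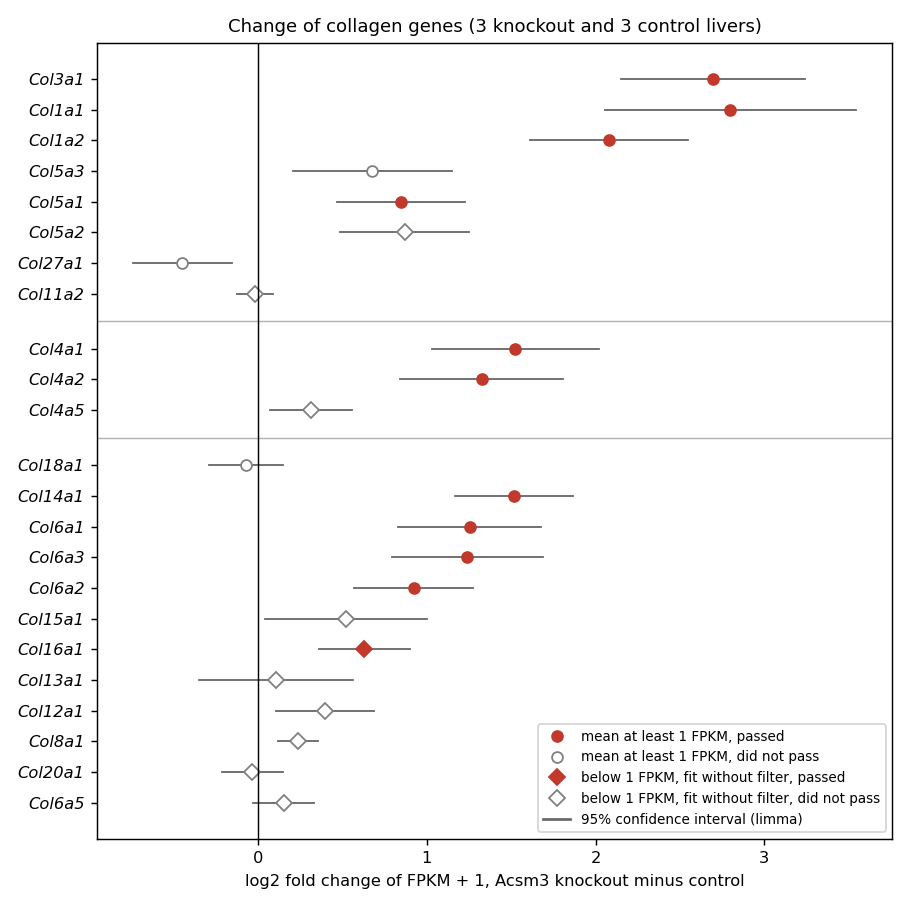
log2 fold change of FPKM + 1, Acsm3 knockout minus control, with limma's 95% confidence interval for the 23 collagen genes averaging 0.1 FPKM or more (circles: at least 1 FPKM, main test; diamonds: below 1 FPKM, fit without a filter). The changes of Col1a1, Col3a1 and Col1a2 are 2.80, 2.69 and 2.08, those of type IV chains Col4a1 and Col4a2 are 1.52 and 1.32, and Col27a1 lies at -0.45.

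Among the fibrillar collagens, the chains of types I and III showed the highest ratios of means. Col1a1 (chromosome 11, 94936224 to 94953042, plus strand, GRCm38) encodes the alpha-1 chain of type I collagen, the main fibril of scar and tendon. It was at 8.43, 14.7 and 5.27 FPKM in knockouts 1, 2 and 3, against 0.447, 0.558 and 0.223 FPKM in controls 1, 2 and 3. The lowest knockout value lay well above the highest control value. These values rest on 862, 1479 and 559 fragments in knockouts and on 48, 58 and 23 fragments in controls. The ratio of means was 23.1 and the log2 fold change 2.80 ± 0.31 (limma, adjusted p = 0.00652).

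Col3a1 (chromosome 1, 45311538 to 45349706, plus strand) encodes the chain of type III collagen, which forms the fine reticular fibres of liver. It was at 12.7, 18.4 and 9.0 FPKM in knockouts 1, 2 and 3, against 0.941, 1.33 and 1.17 FPKM in controls 1, 2 and 3. The groups did not overlap, with a change of 2.69 ± 0.23 on the log2 scale (limma, adjusted p = 0.00423). Col1a2 (chromosome 6, 4504814 to 4541544, plus strand), the partner chain of Col1a1 in type I collagen, was at 6.38, 9.11 and 4.96 FPKM in knockouts 1, 2 and 3. Its control values were 0.684, 1.05 and 0.717 FPKM, giving a log2 difference of 2.08 ± 0.20 (limma, adjusted p = 0.00546). By mean FPKM, Col3a1 was the third and Col1a1 the fifth most abundant collagen of knockout livers, with Col4a1 between them. In control livers Col3a1 ranked 8 and Col1a1 ranked 15 among the 37. The knockout means of Col3a1, Col4a1 and Col1a1 were 13.4, 13.3 and 9.47 FPKM, with SDs of 4.74 FPKM for Col3a1 and 4.82 FPKM for Col1a1. Within each knockout liver, Col1a1 lay below both Col3a1 and Col4a1. Col3a1 lay above Col4a1 in knockout 2 and below it in knockouts 1 and 3, so the order of Col3a1 and Col4a1 is not settled.

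Type V collagen co-assembles with type I and limits fibril diameter. Col5a1 was at 2.32, 2.84 and 1.58 FPKM in knockouts 1, 2 and 3, against 0.728, 0.922 and 0.697 FPKM in controls 1, 2 and 3 (0.85 ± 0.16, limma, adjusted p = 0.0218). The groups did not overlap, but the call was lost without knockout 1 or 2 or any control (adjusted p 0.0608 to 0.0758). Col5a2 was at 1.33, 1.67 and 0.799 FPKM in knockouts, against 0.223, 0.244 and 0.212 FPKM in controls, a ratio of means of 5.60. Its mean lay below the filter, and in the fit without a filter it was at 0.87 ± 0.16 (limma, adjusted p = 0.0514). By voom Col5a2 passed at 2.40 ± 0.36 (adjusted p = 0.00637). Col5a3, the third type V chain, was at 5.07, 4.07 and 2.54 FPKM in knockouts and 2.13, 2.18 and 1.69 FPKM in controls. It did not pass (0.68 ± 0.20, limma, adjusted p = 0.0603), although it did without knockout 3 (adjusted p = 0.0104). By voom it passed among genes with at least 10 fragments (adjusted p = 0.0464). Among genes averaging 1 FPKM or more it did not pass by voom (adjusted p = 0.052).

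Col27a1 was the collagen whose knockout values all lay below the control values. It encodes type XXVII collagen, a fibrillar collagen known chiefly from cartilage. Its FPKM was 1.17, 1.34 and 0.802 in knockouts 1, 2 and 3, against 1.80, 1.998 and 1.76 in controls 1, 2 and 3. Each knockout value lay below each control value, with a log2 fold change of -0.45 ± 0.12 (limma, adjusted p = 0.0505), just short of the threshold. It passed with adjusted p of 0.0256 after median-ratio rescaling and 0.0148 after quantile normalization. Of the remaining fibrillar chains, Col11a2 averaged 0.119 ± 0.041 FPKM in knockouts and 0.134 ± 0.039 FPKM in controls (SD, n = 3 each). Col24a1 lay between 0.0321 and 0.0600 FPKM in all livers, which is 4 to 7 fragments.

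Ratios between chains of the same or of different collagens did not overlap between groups for some pairs. The Col1a1 over Col1a2 ratio of FPKM was 1.32, 1.62 and 1.06 in knockouts 1, 2 and 3, against 0.654, 0.533 and 0.311 in controls 1, 2 and 3. The Col5a1 over Col5a2 ratio was 1.70 to 1.98 in knockouts and 3.26 to 3.79 in controls. For both, no knockout ratio fell within the range of the controls. The Col27a1 over Col5a1 ratio was 0.472 to 0.508 in knockouts and 2.17 to 2.53 in controls, also without overlap. This separation was fixed in advance and adds no further result. Every knockout value of Col27a1 lay below, and every knockout value of Col5a1 above, all control values. In contrast, the Col4a1 over Col4a2 ratio of 1.62 to 1.73 in knockouts lay within the 1.39 to 1.88 of controls (exact permutation test of log2 ratios, two-sided, p = 0.4). Of 8 ratios computed, the other 7 gave p = 0.1 in this exact permutation test, which is the smallest that 3 against 3 animals allow, and 0.114 after Benjamini-Hochberg adjustment over the 8. These ratios were chosen after the values were seen.

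**Figure D4:**
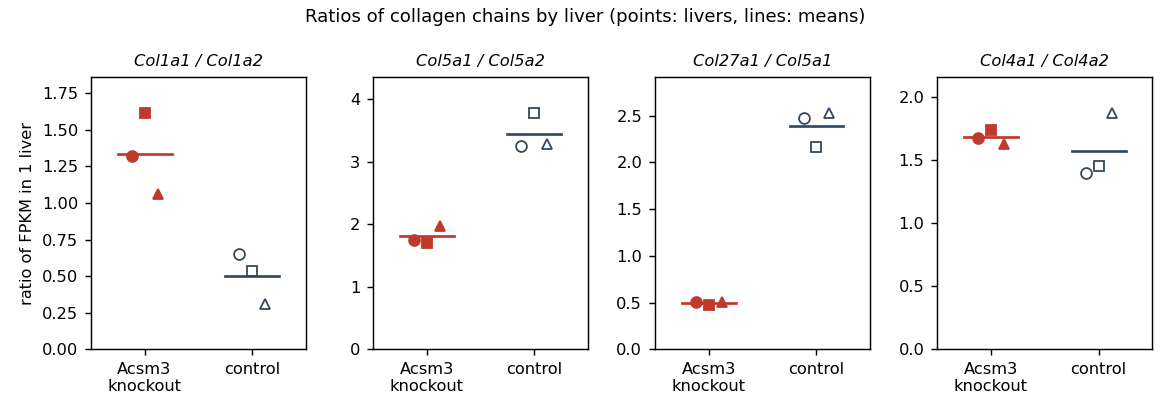
Ratio of FPKM between pairs of collagen chains within each liver (axes from 0; points are livers, lines are means of 3), with Acsm3 knockout left of control. The Col1a1 over Col1a2 ratio averages 1.33 in knockouts and 0.499 in controls, while the Col4a1 over Col4a2 ratio averages 1.68 in knockouts and 1.57 in controls.

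Of the type IV chains of basement membranes, the widespread pair rose, and Col4a3, Col4a4 and Col4a6 were near the limit of detection. Col4a1 (chromosome 8, 11198423 to 11312826, minus strand) was at 14.4, 16.3 and 9.09 FPKM in knockouts 1, 2 and 3, against 3.40, 4.58 and 3.62 FPKM in controls 1, 2 and 3. This was a log2 difference of 1.52 ± 0.21 (limma, adjusted p = 0.0115). Col4a2 (chromosome 8, 11312805 to 11449287, plus strand) was at 8.60, 9.41 and 5.59 FPKM in knockouts, against 2.44, 3.16 and 1.93 FPKM in controls (1.32 ± 0.20, limma, adjusted p = 0.0138). Neither gene's groups overlapped. The Col4a2 call was lost without knockout 2 (adjusted p = 0.0516) or control 3 (adjusted p = 0.0545). The labels do not say whether strand was kept, but the shared 22 bases are 0.295% of Col4a1 and 0.332% of Col4a2 exon sequence in GENCODE M21.

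Col4a5, a chain of the kidney and smooth muscle networks, was at 0.745, 0.574 and 0.377 FPKM in knockouts 1, 2 and 3, against 0.228, 0.301 and 0.237 FPKM in controls 1, 2 and 3. The groups did not overlap, and without a filter it did not pass (0.31 ± 0.10, limma, adjusted p = 0.147). Col4a3 was at 0.0386 to 0.0590 FPKM in knockouts and 0.0552 to 0.102 FPKM in controls. Its head-to-head neighbour Col4a4 was at 0.0583 to 0.0801 FPKM in knockouts and 0.0300 to 0.0655 FPKM in controls. Col4a6 was at 0.0483 to 0.0738 FPKM in knockouts and 0.00792 to 0.0718 FPKM in controls. Each of these 3 chains rested on 16 fragments or fewer per liver, and their groups overlapped.

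Among the other collagens, the chains of type VI rose together. Type VI collagen forms beaded filaments that link cells to the surrounding matrix, built from the products of Col6a1, Col6a2 and Col6a3. Col6a1 was at 5.66, 8.59 and 4.997 FPKM in knockouts 1, 2 and 3, against 1.79, 2.12 and 2.25 FPKM in controls 1, 2 and 3 (1.253 ± 0.18, limma, adjusted p = 0.0124). Col6a3 was at 2.68, 4.08 and 2.07 FPKM in knockouts, against 0.552, 0.760 and 0.596 FPKM in controls (1.24 ± 0.19, limma, adjusted p = 0.0138). Col6a2 was at 1.83, 2.57 and 1.49 FPKM in knockouts, against 0.4997, 0.576 and 0.573 FPKM in controls (0.92 ± 0.15, limma, adjusted p = 0.0151). None of these groups overlapped. The calls of Col6a2 and Col6a3 were lost without control 3 (adjusted p = 0.0573 and 0.0557), and that of Col6a2 also without control 2 (adjusted p = 0.0559). Without knockout 2 the mean of Col6a2 lay below the filter, so Col6a2 was not tested there. The alternative type VI chains Col6a5 and Col6a6 were low, at 0.0477 to 0.269 and 0.0700 to 0.135 FPKM in knockouts and 0.0130 to 0.0811 and 0.0534 to 0.104 FPKM in controls, with overlapping groups.

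The fibril-associated collagens attach to the surface of fibrils. Col14a1 (chromosome 15, 55307750 to 55520803, plus strand), the type XIV chain, was the second most abundant collagen RNA in both groups. It was at 21.7, 27.7 and 20.2 FPKM in knockouts 1, 2 and 3, against 6.72, 8.79 and 6.79 FPKM in controls 1, 2 and 3. The groups stood apart, with a log2 fold change of 1.52 ± 0.15 (limma, adjusted p = 0.00552). Col16a1 was at 1.06, 1.22 and 0.843 FPKM in knockouts, against 0.399, 0.337 and 0.217 FPKM in controls. It was below the filter and passed without one (0.63 ± 0.11, limma, adjusted p = 0.0491). Col12a1, the type XII chain, was at 0.405, 0.764 and 0.300 FPKM in knockouts, against 0.121, 0.166 and 0.0794 FPKM in controls. Its groups did not overlap, but it did not pass without a filter (0.40 ± 0.12, limma, adjusted p = 0.128). By voom it passed (1.92 ± 0.44, adjusted p = 0.0241). Col20a1 overlapped, at 0.114 to 0.262 FPKM in knockouts and 0.111 to 0.282 FPKM in controls.

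The multiplexins Col18a1 and Col15a1 belong to basement membrane zones. Col18a1 was at 127, 117 and 102 FPKM in knockouts 1, 2 and 3, against 123, 118 and 121 FPKM in controls 1, 2 and 3. Its log2 fold change of -0.07 had a 95% confidence interval of -0.29 to 0.15 (limma, adjusted p = 0.618). After median-ratio rescaling it was at -0.23 ± 0.08 (adjusted p = 0.0952). The interval as deposited lies below those of Col4a1 and Col14a1, which start at 1.03 and 1.17. Col15a1 was at 1.10, 1.76 and 0.789 FPKM in knockouts, against 0.453, 0.796 and 0.351 FPKM in controls. Knockout 3 lay just below control 2, and without a filter Col15a1 was at 0.52 ± 0.20 (limma, adjusted p = 0.203).

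The last collagens were low. The transmembrane chain Col23a1 rested on 18, 11 and 11 fragments in knockouts 1, 2 and 3 and on 2, 5 and 4 fragments in controls 1, 2 and 3 (0.148 ± 0.046 FPKM in knockouts and 0.0403 ± 0.0172 FPKM in controls, SD, n = 3 each). It did not pass without a filter (adjusted p = 0.0988 by limma) and passed by voom (adjusted p = 0.0487). The network-forming Col8a1 was at 0.239 to 0.320 FPKM in knockouts and 0.0498 to 0.136 FPKM in controls. It likewise passed by voom (adjusted p = 0.022) and not by limma without a filter (adjusted p = 0.064). Col13a1, another transmembrane collagen, was at 0.779 to 1.20 FPKM in knockouts and 0.608 to 1.40 FPKM in controls, with control 1 the highest of the 6 livers. Col7a1, Col8a2, Col9a3, Col10a1, Col17a1, Col22a1, Col25a1 and Col28a1 stayed below 0.1 FPKM in every liver and were listed at 0 in at least 1. For Col28a1 all knockout values exceeded all control values, but these were 1, 3 and 5 fragments in knockouts and 1, 0 and 0 fragments in controls.

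The collagens that rose were ordered alike over the knockout livers. In all 10, knockout 2 was the highest and knockout 3 the lowest. The same order was seen in 594 of the 1532 genes that rose (38.8%), and knockout 3 was the lowest of the 3 in 68.4% of them.

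The genes that modify, export, cross-link, bind and degrade collagen were taken from 7 lists with 71 genes in the table. Of 39 tested, 18 rose and 1 fell, beside 13.9% and 2.61% of all genes. Their median log2 fold change was 0.38, against 0.13 over all tested genes. In chain modification and folding, 4 of 12 tested genes rose (2 after median-ratio rescaling). Serpinh1, which encodes the procollagen chaperone HSP47, was at 7.65, 9.26 and 6.98 FPKM in knockouts 1, 2 and 3, against 2.55, 3.02 and 2.11 FPKM in controls 1, 2 and 3. The groups were well apart (1.33 ± 0.13, limma, adjusted p = 0.00566). The prolyl 4-hydroxylase subunit P4ha1 (0.66 ± 0.14), the prolyl 3-hydroxylase partner Crtap (0.55 ± 0.14) and the galactosyltransferase Colgalt1 (0.40 ± 0.10) also rose. P4hb, which encodes the abundant beta subunit and disulfide isomerase, was at 455 ± 16.2 FPKM in knockouts and 457 ± 49.0 FPKM in controls (SD, n = 3 each). In secretion, 1 of 9 tested genes rose (0 after median-ratio rescaling), the COPII coat gene Sec24d (0.50 ± 0.13).

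In propeptide removal, 1 of 2 tested genes rose and 1 fell. The enhancer Pcolce rose (0.75 ± 0.12, control mean 0.966 FPKM), whereas the procollagen C-proteinase Bmp1 fell (-0.40 ± 0.10), to 12.1 ± 1.31 FPKM in knockouts, against 16.3 ± 1.45 FPKM in controls (SD, n = 3 each). Of the cross-linking oxidases only Loxl2 reached the filter, through the knockout livers (control mean 0.466 FPKM), where it was higher (0.85 ± 0.17). Without a filter Loxl2 did not pass (limma, adjusted p = 0.0647). Lox, the founding member, was at 0.387, 0.788 and 0.398 FPKM in knockouts 1, 2 and 3, against 0.0636, 0.0525 and 0.0529 FPKM in controls 1, 2 and 3. These Lox groups did not overlap, but without a filter Lox did not pass (limma, adjusted p = 0.0633). By voom on genes with at least 10 fragments Lox passed (2.99 ± 0.53, adjusted p = 0.0102). Among fibril-binding proteoglycans and partners, 6 of 7 tested genes rose, with the same count after median-ratio rescaling. They included lumican Lum (1.47 ± 0.17), the collagen-binding glycoprotein Sparc (1.47 ± 0.15), biglycan Bgn (1.06 ± 0.12) and Prelp (1.02 ± 0.14). Fibronectin, Fn1, which hepatocytes secrete in quantity, was at 129 ± 7.29 FPKM in knockouts and 118 ± 6.29 FPKM in controls (SD, n = 3 each) and did not pass (0.12 ± 0.08, limma, adjusted p = 0.298).

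Of collagen receptors, 2 of 3 tested genes rose, the integrin subunits Itga1 (0.44 ± 0.11) and Itgb1 (0.38 ± 0.07), and 0 passed after median-ratio rescaling. Of collagen degradation, 3 of 5 tested genes rose (2 after median-ratio rescaling), and without a filter 1 of 8 did. Mmp13 and Mmp2 had control means of 0.116 and 0.574 FPKM and were tested only because knockout livers were high. The interstitial collagenase of the mouse, Mmp13, was at 3.75, 2.62 and 1.85 FPKM in knockouts 1, 2 and 3, against 0.183, 0.0709 and 0.0952 FPKM in controls 1, 2 and 3. The groups were far apart (1.71 ± 0.19, limma, adjusted p = 0.00638). The gelatinase Mmp2 (0.9996 ± 0.18) and the prolidase Pepd (0.47 ± 0.10) were the others, and neither passed without a filter (limma, adjusted p = 0.0576 and 0.0623). Serpinh1, Lum, Sparc, Bgn, Prelp and Dcn passed in each of the 6 fits that omit a mouse. Mmp13 kept its call in each fit that tested it. Without knockout 1 its mean fell below the filter, so Mmp13 was not tested there. The other 12 called genes of these lists lost theirs in 2 to 6 of the 6 fits (largest adjusted p from 0.0573 to 0.14).

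**Figure D5:**
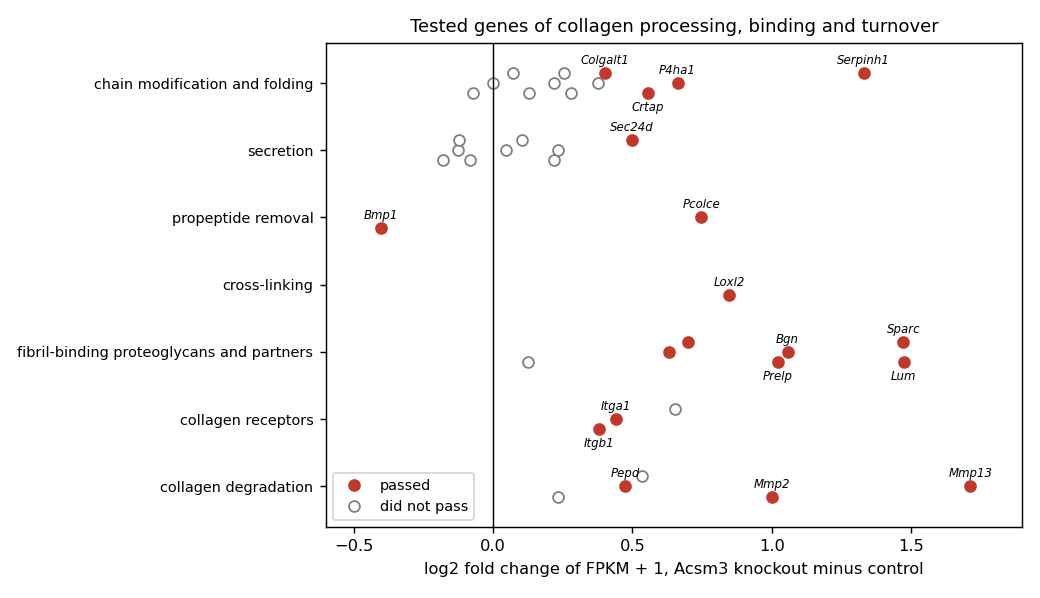
log2 fold change of FPKM + 1, Acsm3 knockout minus control, of the tested genes in 7 lists of collagen processing, binding and turnover (1 row per list, vertical offsets within a row only separate the points; filled: adjusted p under 0.05). Of 39 genes 18 rose and 1, Bmp1, fell; Mmp13 at 1.71 and Lum at 1.47 lie farthest to the right.

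Of 37 tested markers of liver cell types, 17 rose and 2 fell, beside 13.9% and 2.61% of all tested genes, and their part in the collagen results was not tested. Without a filter 7 of the 60 listed markers passed. With each mouse left out, Pdgfrb and Rgs5 passed in all 6 fits, and the other 17 called markers lost their call in 1 to 5 fits (largest adjusted p from 0.0517 to 0.128 by limma). Of hepatic stellate cell markers, 6 of 11 tested genes rose (3 after median-ratio rescaling), and the 12 listed genes summed to 73.0 to 89.8 FPKM in knockouts and 49.3 to 54.8 FPKM in controls. Pdgfrb, the receptor that drives stellate cell growth, was at 4.06 ± 0.74 FPKM in knockouts and 1.35 ± 0.22 FPKM in controls (1.10 ± 0.13, limma, adjusted p = 0.00885, SD over n = 3 each). The vitamin A storage gene Lrat also rose (5.31 ± 0.45 FPKM in knockouts and 3.58 ± 0.59 FPKM in controls, 0.46 ± 0.11, limma, adjusted p = 0.038), a call lost in 5 of the 6 fits that omit a mouse. The stellate markers Hand2 and Ngfr overlapped between groups. Of myofibroblast and smooth muscle markers, 2 of 3 tested genes rose, Timp1 (1.37 ± 0.31) and Postn (0.72 ± 0.13), with sums of 7.80 to 10.7 FPKM in knockouts and 2.83 to 4.70 FPKM in controls. The contractile actin Acta2 was at 2.57 ± 0.996 FPKM in knockouts and 1.12 ± 0.34 FPKM in controls (SD, n = 3 each) and did not pass (limma, adjusted p = 0.0712). Timp1 had a control mean of 0.118 FPKM, was tested only because knockout livers were high, and did not pass without a filter (limma, adjusted p = 0.0785). The contractile genes Tagln, Myh11 and Cnn1 lay below the filter and overlapped between groups, and Tagln was at 0.329 ± 0.135 FPKM in knockouts and 0.357 ± 0.0218 FPKM in controls (SD, n = 3 each). Portal fibroblast and mesothelial markers summed to 4.77 to 7.58 FPKM in knockouts and 2.41 to 3.04 FPKM in controls. Of these, 0 of 1 tested gene passed, and without a filter the elastin gene Eln passed of 8 (limma, adjusted p = 0.0382), while Gli1 stayed below 0.1 FPKM in every liver.

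Of endothelial markers, 3 of 7 tested genes rose, Kdr was at 7.82 ± 2.56 FPKM in knockouts and 7.64 ± 0.221 FPKM in controls (SD, n = 3 each), and the list summed to 66.7 to 96.4 FPKM in knockouts and 49.5 to 58.5 FPKM in controls. Of macrophage and Kupffer cell markers, 4 of 7 rose (3 after median-ratio rescaling), with sums of 310.2 to 585 FPKM in knockouts and 186 to 280 FPKM in controls. Of cholangiocyte markers, 1 of 1 tested gene rose, Spp1, which macrophages also express. The list summed to 34.1 to 66.7 FPKM in knockouts and 13.5 to 16.1 FPKM in controls. Spp1 made up most of these sums, since the other 5 listed genes each averaged under 1 FPKM. Krt7 and Cftr stayed below 0.1 FPKM in every liver. Of hepatocyte markers, 1 of 7 rose and 2 fell, 1 of them Alb, beside 13.9% and 2.61% of all tested genes. The hepatocyte list summed to 29775 to 32711 FPKM in knockouts and 40298 to 48379 FPKM in controls. Alb made up most of these sums, and 4 of the 7 hepatocyte markers did not pass. Lymphocyte markers summed to 1.01 to 2.38 FPKM in knockouts and 0.729 to 1.19 FPKM in controls, and none reached the filter. No marker named in these lists was listed at 0 in all 6 livers.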

How the data were processed

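The authors deposited 1 table of FPKM for 6 mouse liver libraries, 1 per animal, with gene identifiers, symbols and positions. Per the submitters' processing notes, which assign no roles, the tools were HISAT2 2.0.4, Bowtie2 2.2.6 and StringTie 1.3.0 and the build GRCm38. Each column matched 1 sample title, and groups and replicate numbers come from the titles. The labels give no batch.

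Values were tested as log2(FPKM + 1) for genes averaging 1 FPKM or more, with limma 3.58.1 in R 4.3.3 (eBayes with a trend), Benjamini-Hochberg adjustment and a threshold of 0.05. The +1 understates changes of low genes. P-values rest on the spread among the 3 mice of a group. Depth was estimated from FPKM multiplied by union exon length (GENCODE M21), as the total at which most values were whole fragments; of values worth fewer than 20 fragments, 99.6% to 99.7% were whole to within 0.1. Recovered fragments summed to 102.9% to 103.4% of these totals, so they are estimates. Named genes were Acsm3, every collagen past the filter or at 0.1 FPKM in a liver, and up to 4 called genes of largest fold per list. Collagens below that level, Dcn, P4hb, Fn1, Lox, Lrat, Rgs5, Hand2, Ngfr, Acta2, Tagln, Myh11, Cnn1, Kdr, Eln, Gli1, Krt7, Cftr and Alb were otherwise chosen after their values were seen. Not every list gene picked by fold was written about, for instance Reln, Colec11 and Cygb of the stellate list. Members and lists were chosen with earlier results of these data known. The procedure was tested on simulated data. Alternatives were pseudocounts of 0.1 and 5, no filter, a 5 FPKM minimum, scaling by median ratio or quantiles, no trend, a replicate block, each mouse left out and a minimum 2-fold change. Voom on recovered fragments was added after the data were seen. It was run on genes averaging 1 FPKM or more and on genes with at least 10 fragments over the 6 livers. Python 3.11.15 with scipy 1.17.1 and matplotlib 3.10.9 was used for the rest.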

Additional observations from a re-analysis of the deposited data

How the results depend on the processing

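None of the 10 collagen rises changed direction in any of the 16 alternative fits that tested the gene, and Acsm3 stayed lower and past the threshold in all 16. Over the 13 tested members only Col18a1 changed sign, to 0.011 without knockout 3 (limma, adjusted p = 0.929), in a range of -0.14 to 0.011 with each mouse left out, and it was at -0.23 after median-ratio rescaling (adjusted p = 0.0952). A filter at 5 FPKM left 5 collagens, of which 4 were called (1 fibrillar, 1 other), with 11 genes of the collagen lists and 1108 genes in all, and fewer genes were tested. Voom on genes with at least 10 fragments called 17 collagens (7 fibrillar, 8 other) and 30 genes of the lists. Without a filter 10 genes of the lists and 650 genes in all were called. A minimum 2-fold change left 6 genes of the lists and 248 genes in all. Leaving out each mouse gave 6 to 11 collagens (3 to 5 fibrillar, 1 to 2 type IV, 2 to 4 other), 7 to 20 genes of the lists and 287 to 2250 genes in all, against 10, 19 and 1819 as reported. These fits have fewer animals, and the cause of each lost call was not tested. Median-ratio rescaling gave 830 higher and 735 lower genes, and quantile normalization 752 and 603, against 1532 and 287 as reported. Same-numbered mice are separate animals, and their deviations from the group means correlated at 0.111, 0.0918 and 0.187, not all above 0.1, so the numbers were not taken as pairs. Each library correlated best with its own number. The replicate block gave 2018 calls, 12 of them collagens, where Col5a3 passed as higher (adjusted p = 0.0292) and Col27a1 as lower (adjusted p = 0.0464).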
